A study of Arabidopsis thaliana with 6 samples.

Results

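Leaves of *npr1* plants treated with INA (*npr1*+INA) were set against leaves of water-treated wild type (Col) over all gene models of the leaf transcriptome, to see what differed from untreated wild type although NPR1 was defective. Reads of both libraries were joined by gene model, with a missing gene model counted as 0 reads. At least 1 read in either library was found for 23829 of the 25931 gene models listed, which stand for 20913 of 22183 genes. Both libraries belong to a series of 6 conditions, and levels in INA-treated wild type (Col+INA) and INA-treated *hac1/5* (*hac1/5*+INA) are given beside them as values.

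The *npr1*+INA plants carried the *npr1-1* allele and were sprayed with 300 µM INA (2,6-dichloroisonicotinic acid, a synthetic analog of salicylic acid, SA), and the Col plants were Columbia wild type sprayed with water. Col+INA was the same wild type with INA, and *hac1/5*+INA lacked the histone acetyltransferases HAC1 and HAC5 through the alleles *hac1-2* and *hac5-2*. All plants were 4 weeks old, had grown in short days and were harvested 12 h after the spray, and leaves were used. RNA of 3 independent experiments was combined into 1 library per condition, so no difference here has a replicate check. INA and the *npr1-1* allele both differ between *npr1*+INA and Col and cannot be told apart, and water-treated *npr1* was not analysed here.

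SA is the hormone that switches on defence against pathogens that feed on living tissue. NPR1 binds SA and acts as the coactivator of TGA transcription factors, which bind TGACG elements in front of *PR1* and other defence genes. TGA factors are also known to act with the GRAS protein SCL14, without NPR1, at genes that detoxify foreign chemicals.

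Library sums ran from 6698569 reads in *npr1*+INA to 7146973 in Col+INA, with 6920927 in Col. Reads of each gene model were compared by an exact binomial test (two-sided, given the total of both libraries), and p-values were adjusted after Benjamini and Hochberg over all 23829 gene models. A gene was called higher or lower where this FDR did not exceed 0.01 and the level differed by 2-fold or more. What is tested is thus a pair of libraries rather than a pair of conditions, and the 95% Clopper-Pearson intervals given after the ratios reflect counting error alone. In log2 ratios, reads under 3 were set to 3. A ratio to a Col library with 1 to 3 reads was taken from the reads themselves, and its wide interval goes with it. As a check of the tissue, the 6 leaf markers summed to 187712 reads in *npr1*+INA, 114936 in Col+INA, 200953 in *hac1/5*+INA and 284023 in Col. Of 15 markers of other cell types and organs, 8 had no read in *npr1*+INA or Col, and without *SUC2*, *FAMA* and *MYB60*, which veins and guard cells of leaves also express, the rest summed to 24 reads in *npr1*+INA and 19 in Col. No marker of either list was called in either direction, although *LHCB1.3* came close with a log2 ratio of -0.95, and with edgeR's TMM factors 1 leaf marker was called lower.

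The count of higher genes exceeded that of lower genes. In *npr1*+INA 788 of 20913 genes were higher than in Col (3.77%) and 370 were lower (1.77%). At least 4-fold changes were fewer, 235 higher and 72 lower. Among the 13948 genes with at least 20 reads in the sum of both libraries, 748 were higher (5.36%) and 363 lower (2.60%), and the median log2 ratio was 0.09 with quartiles at -0.23 and 0.46. The split depends on the scaling. With edgeR's TMM factors in place of library sums 615 genes were higher and 451 lower, so that 57.7% of called genes were higher, against 68.0% with library sums. Of the higher genes 390 had at least 100 reads in *npr1*+INA, and of the lower genes 225 had at least 100 in Col, so both groups hold deeply measured genes. In leaf RNA, fewer cells of a type and less RNA per cell cannot be told apart.

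**Figure D1:**
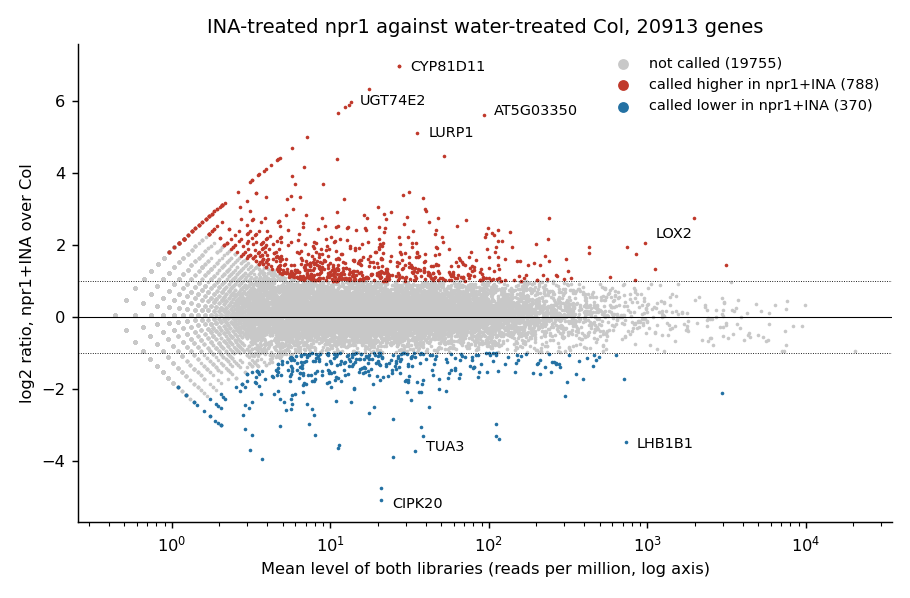
Each point is 1 of 20913 genes, with the mean level of *npr1*+INA and Col on the x axis (CPM, log axis) and the log2 ratio of *npr1*+INA over Col on the y axis. Red points mark the 788 genes called higher, blue points the 370 called lower, and dotted lines the log2 ratios of 1 and -1; *CYP81D11* stands at 6.97 and *CIPK20* at -5.10.

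NPR1 itself does not check the label here, since *npr1-1* is a missense allele that leaves the transcript in place. *NPR1* had 355 reads in *npr1*+INA, 1115 in Col+INA, 1476 in *hac1/5*+INA and 286 in Col. Its ratio of *npr1*+INA to Col was 1.28 (1.09 to 1.5) and was not called. *PR1*, the standard marker of NPR1 activity, had 2 reads in *npr1*+INA, 16158 in Col+INA, 96 in *hac1/5*+INA and 4 in Col. The *npr1*+INA library thus stood with Col for *PR1*, and no fold is given at so few reads.

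SA-response genes were nonetheless higher in *npr1*+INA than in Col for part of the list. Of 36 measured genes of the SA response, 14 were called higher and none lower, that is 38.9%, against 3.77% of all genes. The median log2 ratio of the 23 genes with at least 20 reads was 1.40 in *npr1*+INA over Col, against 0.09 for all genes of that depth. For the same 23 genes it was 4.35 in Col+INA and 3.32 in *hac1/5*+INA over the same Col library.

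Among the effectors, *PR2*, a β-1,3-glucanase, had 244 reads in *npr1*+INA, 25352 in Col+INA, 3310 in *hac1/5*+INA and 49 in Col. Its level in *npr1*+INA was 5.14 times that in Col (3.77 to 7.14). *PR5*, a thaumatin-like protein, had 411 reads in *npr1*+INA, 14583 in Col+INA, 326 in *hac1/5*+INA and 127 in Col, with a ratio of 3.34 (2.73 to 4.11) for *npr1*+INA over Col. Both were therefore above Col and far under Col+INA, while *PR1* was not above Col. *PCC1*, a small membrane-associated protein of pathogen and clock response, had 467 reads in *npr1*+INA, 21648 in Col+INA, 18626 in *hac1/5*+INA and 49 in Col, a ratio of 9.85 (7.33 to 13.5). *LURP1*, which is required for full basal defence against downy mildew, had 461 reads in *npr1*+INA, 6468 in Col+INA, 2226 in *hac1/5*+INA and 14 in Col, a ratio of 34.0 (20.1 to 62.7). *ACD6*, an ankyrin-repeat regulator of cell death, was higher as well, with 182 reads in *npr1*+INA against 58 in Col. Of the 6 effectors measured, 5 were called higher, against 3.77% of all genes.

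Enzymes that turn SA over were the second group. *DMR6* and *DLO1* encode oxygenases that hydroxylate SA. *DMR6* had 1113 reads in *npr1*+INA, 10446 in Col+INA, 6417 in *hac1/5*+INA and 210 in Col, a ratio of 5.48 (4.72 to 6.38). *DLO1* had 62 reads in *npr1*+INA, 7078 in Col+INA, 1304 in *hac1/5*+INA and 2 in Col, so its ratio of 32 has a wide interval (8.50 to 270.3). *UGT74F2*, a glucosyltransferase of SA, reached 481 reads in *npr1*+INA, 747 in Col+INA, 770 in *hac1/5*+INA and 80 in Col, a ratio of 6.21 (4.89 to 7.97). Its level in *npr1*+INA was thus nearer to that in Col+INA than for *DMR6* or *DLO1*. All 4 measured genes that make or export SA (*ICS1*, *EDS5*, *PBS3*, *EPS1*) were not called.

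Among regulators of the SA response, *WRKY70* had 1023 reads in *npr1*+INA, 7709 in Col+INA, 7951 in *hac1/5*+INA and 287 in Col, a ratio of 3.68 (3.23 to 4.21). *WRKY54*, its close relative, had 32 reads in *npr1*+INA, 750 in Col+INA, 1537 in *hac1/5*+INA and 5 in Col. *SARD1*, a transcription factor that drives SA synthesis genes, had 93 reads in *npr1*+INA and 38 in Col. The receptor gene *NPR4* had 421 reads in *npr1*+INA, 764 in Col+INA, 939 in *hac1/5*+INA and 165 in Col, a ratio of 2.64 (2.20 to 3.18). *GRX480*, a glutaredoxin that binds TGA factors, had 14 reads in *npr1*+INA and none in Col, which is at least 4.82-fold higher against the floor of 3 reads. *TGA3* had 183 reads in *npr1*+INA and 375 in Col, and its log2 ratio of -0.99 lay just short of the threshold, which it passed as lower with TMM factors. Of the 11 measured genes of the NPR family and its partners, TGA factors included, 3 were called higher and 0 lower. Over all genes the shares were 3.77% higher and 1.77% lower.

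Genes that detoxify foreign chemicals were the list with the largest share of higher members. Of 18 measured markers of this response, 11 were called higher and none lower (61.1%, against 3.77% of all genes). The median log2 ratio of the 15 with at least 20 reads was 2.21 in *npr1*+INA, 2.62 in Col+INA and 2.16 in *hac1/5*+INA, all over Col. Whether these medians differ between the INA-treated libraries was not tested.

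*CYP81D11*, a cytochrome P450 that responds to xenobiotics, was among the genes with the largest ratios. It had 363 reads in *npr1*+INA, 41 in Col+INA, 1 in *hac1/5*+INA and 1 in Col, a ratio of 375 to Col that rests on 1 read in Col (66.9 to 14854). Here *npr1*+INA was the highest of the 4 libraries. *UGT74E2*, a glucosyltransferase of the auxin precursor indole-3-butyric acid, had 172 reads in *npr1*+INA, 93 in Col+INA, 126 in *hac1/5*+INA and 3 in Col, a ratio of 59.2 (19.9 to 290.1). *GSTU1*, one of the glutathione S-transferases that conjugate toxic compounds, had 112 reads in *npr1*+INA, 61 in Col+INA, 41 in *hac1/5*+INA and 9 in Col, a ratio of 12.9 (6.54 to 28.9). *UGT73C1*, a glucosyltransferase of foreign compounds and cytokinins that stands outside the list, had 140 reads in *npr1*+INA, 42 in Col+INA, 54 in *hac1/5*+INA and 7 in Col.

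The list's NAC regulators followed. *NAC032* had 557 reads in *npr1*+INA, 390 in Col+INA, 112 in *hac1/5*+INA and 86 in Col, a ratio of 6.69 (5.32 to 8.50). *ATAF1* had 1045 reads in *npr1*+INA and 233 in Col, and *NAC102* had 1199 in *npr1*+INA and 255 in Col. *SCL14* itself was not called. Other members were higher in *npr1*+INA than in Col but lower than in Col+INA, among them *GSTU4* with 40 reads in *npr1*+INA, 367 in Col+INA, 906 in *hac1/5*+INA and 1 in Col, and *CYP81D8* with 39 reads in *npr1*+INA, 507 in Col+INA, 1212 in *hac1/5*+INA and 11 in Col. *GSTU19*, the most abundant called member, had 3092 reads in *npr1*+INA, 7400 in Col+INA, 5448 in *hac1/5*+INA and 1045 in Col, a ratio of 3.06 (2.85 to 3.28).

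Over whole enzyme families called conjugating enzymes were mostly higher. Of 41 glutathione S-transferases 9 were higher (22.0%, against 3.77% of all genes) and none lower, and of 51 UDP-glycosyltransferases 12 were higher (23.5%) and 1, *UGT84A4*, was lower. *DOGT1*, which glucosylates brassinosteroids and fungal toxins, had 1281 reads in *npr1*+INA, 1021 in Col+INA, 1125 in *hac1/5*+INA and 251 in Col, a ratio of 5.27 (4.6 to 6.06). *UGT73B1* had 477 reads in *npr1*+INA, 63 in Col+INA, 6 in *hac1/5*+INA and 65 in Col. Of 141 cytochrome P450s, 6 were higher and 10 lower, that is 4.26% and 7.09% against 3.77% and 1.77% of all genes. Reads of near-identical copies such as *GSTF2* and *GSTF3* or *GSTF6* and *GSTF7* may have been split between them, since the counting of reads with several matches is not given in the sources used here.

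The 250 bases before the annotated start of 3 genes are shown because these, among the 8 of the 12 genes with the largest ratios for which such a window was read, hold the TGACG element of TGA factors. They are RefSeq sequence of build TAIR10.1, 5′ to 3′ on the strand of the gene, with TGACG, or CGTCA for the other strand, in capitals. *CYP81D11* lies on the minus strand at chr3:10790554-10790803, *AT5G03350* on the minus strand at chr5:816671-816920 and *GSTU1* on the minus strand at chr2:12632539-12632788.
CYP81D11: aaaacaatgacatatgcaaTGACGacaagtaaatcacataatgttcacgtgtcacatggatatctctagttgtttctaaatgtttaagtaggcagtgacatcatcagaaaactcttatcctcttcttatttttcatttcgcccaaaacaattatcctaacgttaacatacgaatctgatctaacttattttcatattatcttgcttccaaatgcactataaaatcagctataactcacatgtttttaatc
AT5G03350: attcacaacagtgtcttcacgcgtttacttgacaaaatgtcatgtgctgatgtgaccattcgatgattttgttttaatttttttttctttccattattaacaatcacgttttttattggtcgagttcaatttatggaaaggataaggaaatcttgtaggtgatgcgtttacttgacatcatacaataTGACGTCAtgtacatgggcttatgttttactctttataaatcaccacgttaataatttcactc
GSTU1: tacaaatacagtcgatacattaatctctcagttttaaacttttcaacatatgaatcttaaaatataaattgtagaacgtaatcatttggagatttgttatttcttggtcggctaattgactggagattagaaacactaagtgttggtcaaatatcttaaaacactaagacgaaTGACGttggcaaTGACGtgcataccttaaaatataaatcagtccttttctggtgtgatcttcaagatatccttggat

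In *GSTU1* there are 2 matches, and in *AT5G03350* the matches on both strands overlap in TGACGTCA and count as 2. Lower genes held the element too. Of the 12 genes with the smallest ratios 11 had a window, and 3 of these held TGACG (27.3%). They were *LHB1B1* with 3 matches, and *TUA3* and *PLP9* with 1 each. Over all tested genes with such a window 19.1% held at least 1 TGACG on either strand and 3.44% at least 2. Of 745 higher genes with a window 25% held at least 1 and 6.85% at least 2, and of 358 lower genes 20.9% and 2.51% did. Of the 18 detoxification markers 8 held it (44.4%), and of the 11 higher ones 5 did (45.5%), so the higher members did not stand apart from their list. The W-box core TTGAC, which can overlap TGACG by its letters TGAC, stood in 45.8% of higher, 43.9% of lower and 44.8% of all windows. CACGTG was found in 8.59% of higher, 5.31% of lower and 7.31% of all windows, and AAATATCT in 5.37% of higher, 6.7% of lower and 4.88% of all windows. A match of letters is a description of the window and not a binding site.

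*AT5G03350* encodes a legume lectin family protein. It had 1216 reads in *npr1*+INA, 14075 in Col+INA, 32464 in *hac1/5*+INA and 26 in Col, a ratio of 48.3 (32.8 to 74.3). Like *LURP1*, it was far above Col in *npr1*+INA and higher still in both other INA-treated libraries. The opposite order was seen for *AT2G43590*, a chitinase family gene, with 665 reads in *npr1*+INA, 41 in Col+INA, 92 in *hac1/5*+INA and 31 in Col, a ratio of 22.2 (15.5 to 32.9).

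**Figure D2:**
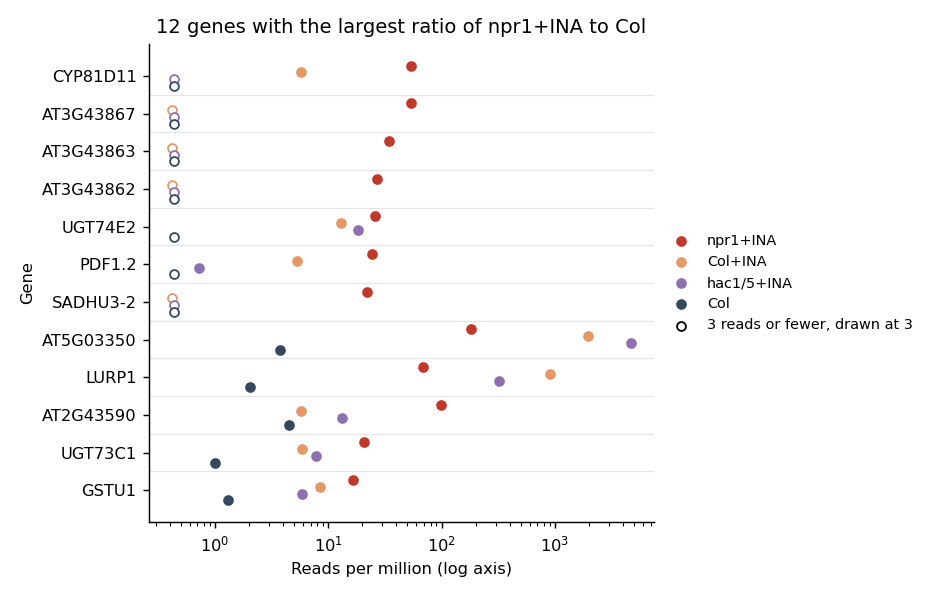
The 12 genes with the largest ratio of *npr1*+INA to Col among called genes with at least 100 reads in *npr1*+INA, with the level in each of the 4 libraries (CPM, log axis); open circles stand for 3 reads or fewer, drawn at 3. In 10 of the 12 genes *npr1*+INA is the rightmost point, an order that the choice of genes by this ratio favours. In *AT5G03350* and *LURP1* both Col+INA and *hac1/5*+INA lie to its right.

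Jasmonate and ethylene genes gave a small group of higher members. Of 33 measured genes 6 were called higher and none lower (18.2%, against 3.77% of all genes), and the median log2 ratio of the 19 with at least 20 reads was 0.53. *PDF1.2*, a plant defensin used as the marker of jasmonate and ethylene signals, had 163 reads in *npr1*+INA, 38 in Col+INA, 5 in *hac1/5*+INA and 2 in Col, a ratio of 84.2 that rests on 2 reads in Col (22.9 to 701.2). Its near-identical copies *PDF1.3* and *PDF1.2c* had 25 and 19 reads in *npr1*+INA and none in Col, and reads may be split between the copies. *LOX2*, the chloroplast lipoxygenase at the start of jasmonate synthesis, had 10468 reads in *npr1*+INA, 9144 in Col+INA, 7162 in *hac1/5*+INA and 2618 in Col, a ratio of 4.13 (3.96 to 4.31). *AOC2*, allene oxide cyclase, had 366 reads in *npr1*+INA and 109 in Col, whereas *AOS*, the enzyme before it, had 931 in *npr1*+INA and 1378 in Col and was not called. Over all 9 measured synthesis genes, whatever their depth, the median log2 ratio was -0.49, with 2 called higher and 0 lower. None of the 10 measured receptor and repressor genes (*COI1* and the *JAZ* family) and none of the 4 transcription factors passed. *MYC2*, the main activator of jasmonate genes, had 883 reads in *npr1*+INA and 472 in Col, a log2 ratio of 0.95.

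Some genes of the anthocyanin branch of the flavonoid pathway were higher. Of 17 measured flavonoid and anthocyanin genes 4 were higher and none lower (23.5%, against 3.77% of all genes), among them 2 of 5 transcription factors and 2 of 8 synthesis genes. *PAP1* and *PAP2*, the MYB activators of anthocyanin synthesis, had 187 and 71 reads in *npr1*+INA against 46 and 15 in Col, with ratios of 4.20 (3.03 to 5.93) and 4.89 (2.78 to 9.19). *GSTF12*, needed to move anthocyanins into the vacuole, had 142 reads in *npr1*+INA, 46 in Col+INA, 4 in *hac1/5*+INA and 49 in Col. *DFR*, which commits the pathway to anthocyanins, had 20 reads in *npr1*+INA and none in Col, at least 6.89-fold higher against the floor. The abundant early genes *PAL1*, *PAL2*, *C4H* and *CHS* had log2 ratios between 0.33 and 0.70 and were not called.

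Chloroplast-encoded genes and nuclear genes for plastid gene expression were higher in *npr1*+INA than in Col for part of their lists. Plastid genes are read by a polymerase whose core subunits the chloroplast genome encodes and whose associated proteins come from the nucleus. Chloroplast-encoded genes took 4.03% of all reads in *npr1*+INA, 2.02% in Col+INA, 2.50% in *hac1/5*+INA and 2.86% in Col. Of 79 measured chloroplast-encoded genes 11 were called higher and none lower (13.9%, against 3.77% of all genes), and 66 of the 77 with at least 20 reads had a ratio above 1. The median log2 ratio of these 77 was 0.51 in *npr1*+INA, -0.32 in Col+INA and 0.06 in *hac1/5*+INA, against 0.09 in *npr1*+INA for all genes.

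Of the 4 chloroplast genes for polymerase subunits 3 rose. The gene of the β subunit (ATCG00190) had 1160 reads in *npr1*+INA, 203 in Col+INA, 394 in *hac1/5*+INA and 382 in Col, a ratio of 3.14 (2.79 to 3.53). The other pair, ATCG00170 and ATCG00180, had 673 and 375 reads in *npr1*+INA against 254 and 153 in Col. The gene of the α subunit (ATCG00740) had 6999 reads in *npr1*+INA, 1751 in Col+INA, 3126 in *hac1/5*+INA and 4179 in Col, and its log2 ratio of 0.79 was not called. ATCG01110, a subunit of the chloroplast NAD(P)H dehydrogenase, had 2309 reads in *npr1*+INA, 377 in Col+INA, 897 in *hac1/5*+INA and 743 in Col, a ratio of 3.21 (2.95 to 3.49). Among all genes called higher, the most reads in *npr1*+INA fell on ATCG01130, the open reading frame Ycf1, with 30624 reads in *npr1*+INA, 6638 in Col+INA, 14033 in *hac1/5*+INA and 11656 in Col, a ratio of 2.71 (2.66 to 2.77). The gene of ATP synthase subunit β (ATCG00480) differed less, with 73586 reads in *npr1*+INA and 60490 in Col. Its ratio was 1.26 (1.24 to 1.27). Whether the libraries were enriched for polyadenylated RNA, which would set the share of chloroplast transcripts, is not given in the sources used here, and its part in these values was not tested. Of 58 measured mitochondria-encoded genes none was called in either direction at the 0.01 threshold, and the exact binomial test called 3 lower at an FDR of at most 0.2.

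A list of 21 nuclear genes of plastid gene expression, with 3 chaperone genes among them, was added after these values had been seen, so its counts are a description. Of these 21 genes, 9 were higher and none lower (42.9%, against 3.77% of all genes). The 9 were all 3 chaperone genes and 6 of the 11 genes of polymerase-associated proteins. *FLN1*, a fructokinase-like protein of the plastid polymerase complex, had 472 reads in *npr1*+INA, 97 in Col+INA, 237 in *hac1/5*+INA and 61 in Col, a ratio of 8.0 (6.11 to 10.6). *FLN2* had 513 reads in *npr1*+INA, 57 in Col+INA, 145 in *hac1/5*+INA and 107 in Col. *PTAC12* and *PTAC14*, further members of the complex, had 760 and 673 reads in *npr1*+INA against 249 and 243 in Col, with 90 and 95 in Col+INA. The iron superoxide dismutases *FSD2* and *FSD3*, also bound to the complex, had ratios of 4.02 (3.12 to 5.25) and 2.37 (1.93 to 2.93). *CPN60A*, the chaperonin that folds chloroplast proteins, had 8794 reads in *npr1*+INA, 2555 in Col+INA, 2119 in *hac1/5*+INA and 2703 in Col, a ratio of 3.36 (3.22 to 3.51). None of the 6 sigma factors, which direct the polymerase to promoters, was called, and *SIG5* had 3929 reads in *npr1*+INA and 5981 in Col.

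**Figure D3:**
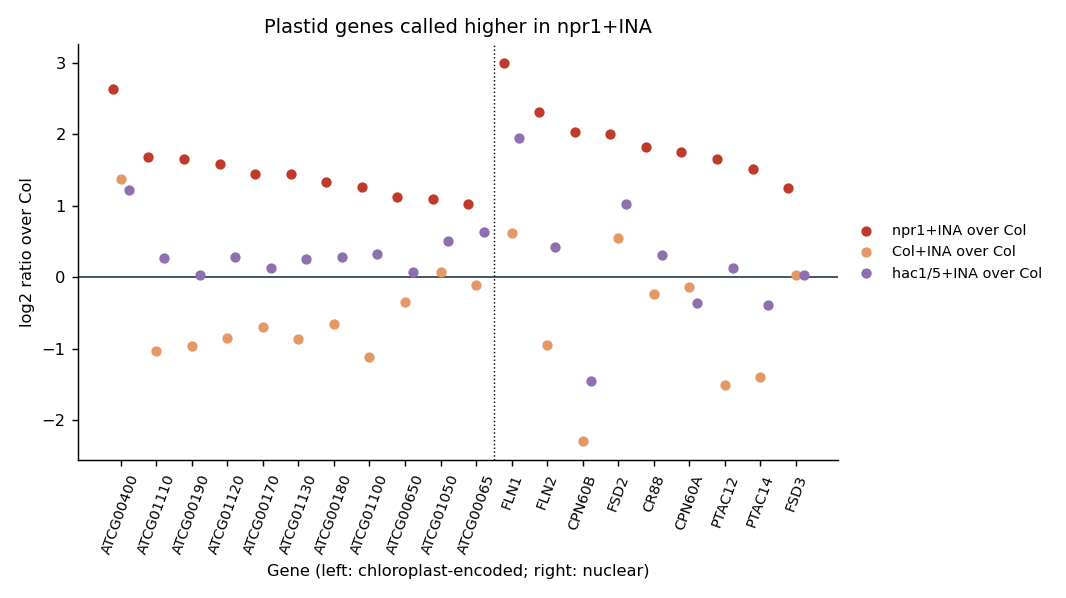
The log2 ratio over Col of the 11 chloroplast-encoded genes (left of the dotted line) and 9 nuclear genes of plastid gene expression (right of it) that were called higher in *npr1*+INA, with the ratios of Col+INA and *hac1/5*+INA over the same Col library beside them. The *npr1*+INA points lie between 1.03 and 3.0, and none could lie under 1 because the genes were chosen by their call in *npr1*+INA. Col+INA points of the same genes, not used in that choice, lie between -2.29 and 1.37.

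Heat shock genes were a smaller group, with 7 of 45 measured members higher and none lower (15.6%, against 3.77% of all genes) and a median log2 ratio of 0.51, against 0.09 for all genes. *HSP60*, the mitochondrial chaperonin, had 1560 reads in *npr1*+INA, 902 in Col+INA, 821 in *hac1/5*+INA and 554 in Col, a ratio of 2.91 (2.64 to 3.21). *HSP90.1* had 1021 reads in *npr1*+INA and 438 in Col, and *HSP17.6II* had 39 in *npr1*+INA and 10 in Col. The constitutive *HSC70-1* and *HSP81-3* had log2 ratios of 0.54 and 0.49 and were not called.

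Several transposable element genes had reads almost only in *npr1*+INA. This group was picked after the largest ratios had been seen. Of 434 measured elements 19 were higher and 5 lower (4.38% and 1.15%, against 3.77% and 1.77% of all genes). Only 104 of the 434 had at least 20 reads in sum, against 13948 of 20913 genes, so these shares are not matched for depth. Of the 19 higher elements, 13 had at most 2 reads in each of the 3 other libraries. These 13 had between 11 and 362 reads in *npr1*+INA, and 11 of them had none in Col. *AT3G43862*, *AT3G43863* and *AT3G43867* are adjacent in the table, on the minus strand of chromosome 3 within 11743 bases (chr3:15714896-15726638). They had 179, 232 and 362 reads in *npr1*+INA, and the 9 other values, in Col+INA, *hac1/5*+INA and Col, summed to 3 reads. *AT3G43863* was thereby at least 79.9-fold and *AT3G43867* at least 124.7-fold higher in *npr1*+INA than in Col against the floor of 3 reads. *SADHU3-2*, another transposable element gene, had 147 reads in *npr1*+INA, 2 in Col+INA, 1 in *hac1/5*+INA and 1 in Col. Of the 13 elements 8 lie on chromosome 3, 2 on chromosome 1, 2 on chromosome 2 and 1 on chromosome 5. In all, 13 genes of any kind had at least 20 reads in *npr1*+INA and at most 2 in each other library. Of these, 11 were transposable elements, which made up 434 of the 20913 genes. The same search was not made for the other libraries, so the pattern is not shown to be particular to *npr1*+INA. Summed over all 434 elements, reads were 15147 in *npr1*+INA, 8340 in Col+INA, 10686 in *hac1/5*+INA and 12889 in Col. Elements share sequence with their copies, and reads may come from a copy other than the one listed.

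Genes lower in *npr1*+INA than in Col came from many functions. *CIPK20*, a protein kinase that works with calcineurin B-like calcium sensors, had 8 reads in *npr1*+INA, 102 in Col+INA, 260 in *hac1/5*+INA and 283 in Col. Its level in *npr1*+INA lay 34.2-fold under that in Col (17.1 to 80.1). *AT3G06145*, of unknown function, had 10 reads in *npr1*+INA, 190 in Col+INA, 107 in *hac1/5*+INA and 277 in Col, 26.8-fold lower (14.4 to 56.5). *TUA3*, an α-tubulin, had 32 reads in *npr1*+INA, 230 in Col+INA, 298 in *hac1/5*+INA and 439 in Col, 13.3-fold lower (9.27 to 19.6). *PIT1*, a RING-type zinc finger gene, had 10 reads in *npr1*+INA, 118 in Col+INA, 88 in *hac1/5*+INA and 101 in Col. For these 4 genes *npr1*+INA was the lowest of all libraries, and both other INA-treated libraries were nearer to Col. Their choice by a small ratio of *npr1*+INA to Col favours this order.

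Others of the 12 genes were lower in all INA-treated libraries than in Col. *AT1G62510*, of the lipid-transfer protein superfamily, had 136 reads in *npr1*+INA, 84 in Col+INA, 7 in *hac1/5*+INA and 1403 in Col, 9.98-fold lower than in Col (8.37 to 12.0). *AT3G24460*, a Serinc-domain protein gene, had 135 reads in *npr1*+INA, 636 in Col+INA, 91 in *hac1/5*+INA and 1470 in Col. *PLP9*, a patatin-like protein, had 54 reads in *npr1*+INA, 66 in Col+INA, 9 in *hac1/5*+INA and 463 in Col.

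**Figure D4:**
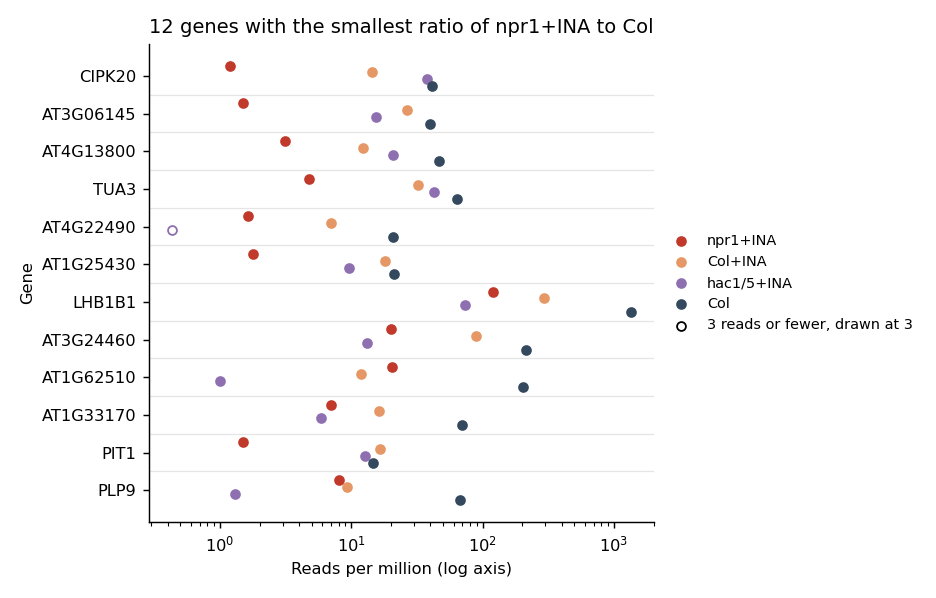
The 12 genes with the smallest ratio of *npr1*+INA to Col among called genes with at least 100 reads in Col, with the level in each of the 4 libraries (CPM, log axis); an open circle stands for 3 reads or fewer, drawn at 3. *CIPK20* has 8 reads in *npr1*+INA and 283 in Col, and *LHB1B1* has 804 in *npr1*+INA and 9275 in Col.

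*LHB1B1*, a chlorophyll a/b-binding protein of light-harvesting complex II, had 804 reads in *npr1*+INA, 2087 in Col+INA, 509 in *hac1/5*+INA and 9275 in Col, 11.2-fold lower than in Col (10.4 to 12.0). Its near-identical neighbour *LHB1B2* had 33290 reads in *npr1*+INA, 45301 in Col+INA, 67069 in *hac1/5*+INA and 66042 in Col and was not called. The share of reads assigned to each copy is uncertain. *LHB1B1* was the only 1 of 51 nuclear light-harvesting and photosystem genes that was called, although 41 of the 51 had a ratio under 1 and their median log2 ratio was -0.33. With TMM factors 3 of the 51 were called lower.

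Genes of nutrient and sugar status were called in both directions. Of 21 measured genes 3 were lower and 2 higher (14.3% and 9.52%, against 1.77% and 3.77% of all genes). *APR1*, which reduces sulfate for cysteine synthesis, had 1037 reads in *npr1*+INA, 1657 in Col+INA, 490 in *hac1/5*+INA and 2845 in Col, 2.65-fold lower than in Col (2.47 to 2.85). *SQD2*, a sulfolipid synthase of phosphate starvation, had 1016 reads in *npr1*+INA, 1032 in Col+INA, 5339 in *hac1/5*+INA and 2600 in Col, and *LSU2*, a gene of low sulfur, had 127 in *npr1*+INA and 266 in Col. The higher pair was *BHLH38* and *BHLH39*, transcription factors of iron deficiency, with 42 and 15 reads in *npr1*+INA against 11 and 2 in Col, and with TMM factors 1 of them was called.

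Few genes of defence metabolites were called, and these were lower. Of 25 glucosinolate genes none was higher and 2 were lower (8.0%, against 1.77% of all genes). *MAM3*, which elongates the side chain of aliphatic glucosinolates, had 91 reads in *npr1*+INA, 1172 in Col+INA, 1 in *hac1/5*+INA and 320 in Col, 3.40-fold lower than in Col (2.69 to 4.34). *CYP81F2*, which modifies indole glucosinolates, had 4 reads in *npr1*+INA, 90 in Col+INA, 117 in *hac1/5*+INA and 20 in Col, and its FDR of 0.00997 (exact binomial test with Benjamini-Hochberg adjustment) lay just inside the threshold. *CYP71A13*, of camalexin synthesis, had 78 reads in *npr1*+INA, 638 in Col+INA, 1884 in *hac1/5*+INA and 203 in Col, 2.52-fold lower (1.93 to 3.31). *ESM1*, which steers glucosinolate breakdown towards isothiocyanates and was named after its values were seen, had the most reads of all lower genes, with 7527 in *npr1*+INA, 7088 in Col+INA, 4421 in *hac1/5*+INA and 33504 in Col. Its level in *npr1*+INA was 4.31-fold lower than in Col (4.20 to 4.42), and all 3 INA-treated libraries lay well under Col.

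Cell wall, clock and cold genes went both ways. Of 45 expansins and XTHs, which loosen and remodel the cell wall, 4 were higher and 5 lower (8.89% and 11.1%, against 3.77% and 1.77% of all genes). *EXPA10* had 371 reads in *npr1*+INA, 21 in Col+INA, 190 in *hac1/5*+INA and 74 in Col, while *XTH4* had 1705 reads in *npr1*+INA, 944 in Col+INA, 465 in *hac1/5*+INA and 4552 in Col. Of 15 clock genes *ELF3* was higher, with 57 reads in *npr1*+INA against 25 in Col, and *PRR7* was lower, with 290 in *npr1*+INA against 638 in Col, while *CCA1* had 475 in *npr1*+INA against 622 in Col and was not called. Of 17 cold and dehydration genes *NCED3*, the first enzyme committed to abscisic acid, was higher with 146 reads in *npr1*+INA against 68 in Col, and *ABI1*, a phosphatase that damps abscisic acid signals, was lower with 333 in *npr1*+INA against 747 in Col. *LTI30*, a dehydrin, was higher with 17 in *npr1*+INA against 2 in Col, and *GOLS3*, a galactinol synthase, was lower with 13 in *npr1*+INA against 65 in Col. Of 35 Aux/IAA and *GH3* genes 1 was higher, *IAA14*, with 371 reads in *npr1*+INA against 120 in Col. Among 54 WRKY genes 4 were higher and 1 lower (7.41% and 1.85%), of 43 histone genes 1 was higher (2.33%), and of 17 cytosolic ribosomal protein genes that the description rule found 2 were higher (11.8%). The share of higher genes in the Aux/IAA and *GH3* list, 2.86%, and in the histone list was thus under the 3.77% of all genes, and counts of 1 or 2 in the clock, cold and ribosomal lists are too small to set against it.

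**Figure D5:**
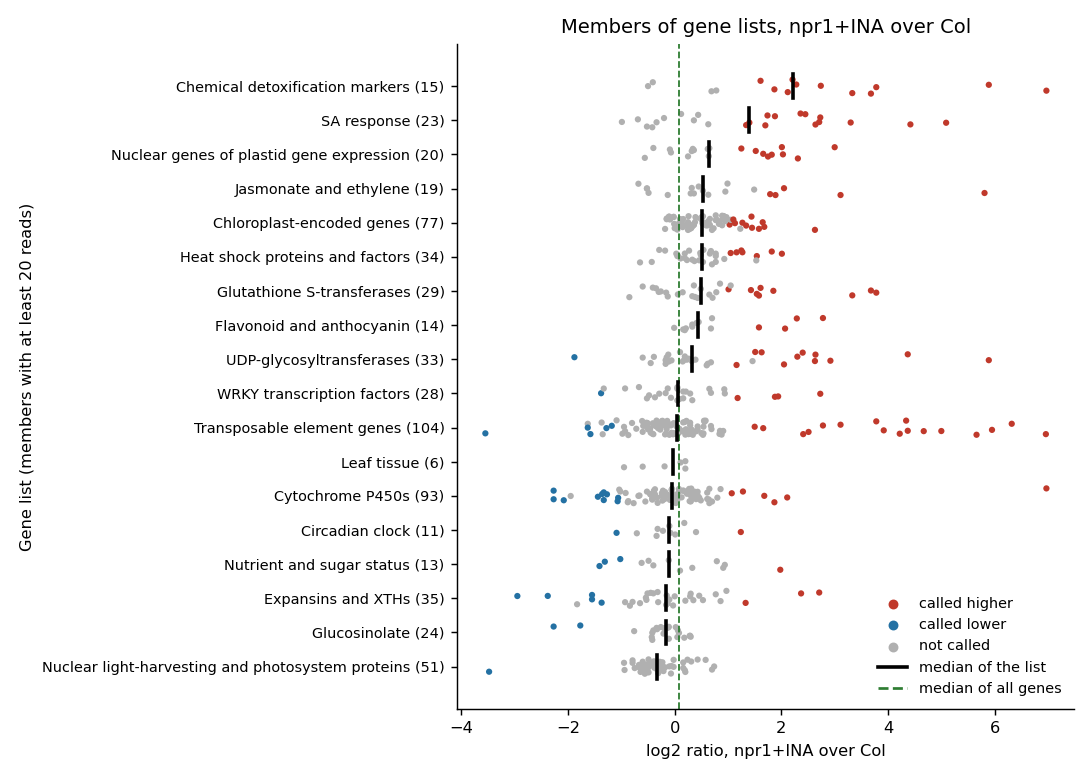
The log2 ratio of *npr1*+INA over Col for every member with at least 20 reads in 18 gene lists, each point 1 gene and its colour the call, with the median of the list as a black bar and the median of all genes, 0.09, as a dashed line. List medians run from 2.21 for the chemical detoxification markers to -0.33 for the light-harvesting and photosystem genes.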

How the data were processed

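Leaf RNA-seq of *npr1*+INA and Col was compared, and Col+INA and *hac1/5*+INA were given as values. The authors mapped HiSeq 2000 reads by SOAPaligner/soap2 with 2 mismatches at most and counted reads per gene model. The submitters' processing notes name TAIR 10. The counts of each gene model, deposited in 3 tables, are raw whole numbers. Deposited RPKM values could be recomputed from them with gene model length and library sum to within 5.8e-08 on the log2 scale. Since the tables hold raw counts and the Col+INA column is identical in each, counts could be set side by side across tables. Columns with the authors' own log2 ratios, p-values and FDR hold their comparisons and were not used.

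The tables were joined by gene model, and each gene is represented by its gene model with the most reads in both libraries together. Genes named are, per direction, the 12 with the largest ratio among called genes with at least 100 reads in the higher library, then *NPR1*, *PR1*, *PR2* and *PR5*, and from each gene list up to 6 called members with the largest change and up to 4 with the most reads. Named outside this rule, after their values were seen, were *ACD6*, *SARD1*, *GRX480*, *TGA3*, *SCL14*, *ICS1*, *EDS5*, *PBS3*, *EPS1*, *DOGT1*, *UGT84A4*, *FSD3*, *PTAC12*, *PTAC14*, *LHB1B2*, *ESM1*, ATCG00180, ATCG00740 and the genes of the gene ontology terms. The lists of nuclear plastid genes and of transposable elements were added at that stage. Members and lists were chosen with earlier results of these data known. Lists come by name or by symbol, description or ID rules, and 4 entries without a name in the files or reference were left out. Symbols of 22002 gene IDs matched RefSeq TAIR10.1, in which 99.0% of the compared gene spans lay inside the reference gene. Windows of 250 bases before each annotated gene start were read from that genome. The test was checked on simulated counts with known changes. Alternatives were an FDR of 0.2, a log2 threshold of 2, edgeR's exact test with the biological coefficient of variation set to 0.2 or 0.4, TMM factors, DESeq2's size factors, at least 10 reads in 1 library, log2(RPKM + 1), reads summed over gene models, and counting a gene when any gene model passed. Calculations used DESeq2 1.42.0 and edgeR 4.0.16 in R 4.3.3, and SciPy 1.17.1, pandas 2.3.3 and matplotlib 3.10.9 in Python 3.11.15.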

Additional observations from a re-analysis of the deposited data

How the results depend on the processing

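With 788 genes higher and 370 lower in *npr1*+INA than in Col, the counts were 1297 and 615 at an FDR of 0.2, 235 and 72 at a log2 threshold of 2, 140 and 50 with edgeR's exact test at an assumed biological coefficient of variation of 0.2, and 14 and 2 at 0.4. TMM factors gave 615 and 451, and DESeq2's size factors 667 and 402. The other 4 alternatives (at least 10 reads in 1 library, log2(RPKM + 1), reads summed over gene models, any gene model passing) gave 617 to 820 higher and 298 to 389 lower. None of the 28 genes of the fixed naming rule changed direction, but this is no check of them. The FDR, log2 threshold, variation and read filter settings use the same ratios, so direction could not change there. Most of the 28 were also picked for large ratios. *PR5* was not called at a log2 threshold of 2 or a variation of 0.2, and 14 of the 28 lost their call at 0.4. *NPR1* and *PR1*, also among the 28, had no call to lose. At a variation of 0.2 higher members numbered 7 in place of 14 for the SA response, 4 in place of 9 for nuclear plastid genes, 1 in place of 11 for chloroplast-encoded genes and 0 in place of 7 for heat shock genes. At 0.4 they numbered 1 for the SA response, 2 in place of 11 for detoxification markers, 1 in place of 6 for jasmonate and ethylene genes, 8 in place of 19 for transposable elements and 0 for the plastid, chloroplast-encoded and heat shock lists. Higher glutathione S-transferases numbered 3 at 0.2 and 0 at 0.4 in place of 9, and higher UDP-glycosyltransferases 6 and 1 in place of 12. Higher flavonoid and anthocyanin genes numbered 2 and 0 in place of 4. No lower member of the glucosinolate, camalexin or nutrient lists was called at 0.2 or 0.4. TMM factors moved the median of all genes by -0.09. Leaving out a replicate was not possible with 1 library per condition. No paired analysis was possible because each condition has 1 library and the labels give no replicate numbers.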

Other observations

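The deposited tables carry gene ontology terms, and 201 process terms had 20 to 300 tested genes. The counts below are descriptions with no test. The term with the largest share of higher genes was toxin metabolic process, with 9 of 39 genes (23.1%, against 3.77% of all genes). These are the same 9 glutathione S-transferases counted above as a family. RNA modification had 6 higher genes of 36, among them *SVR1*, a chloroplast pseudouridine synthase with 331 reads in *npr1*+INA, 117 in Col+INA, 207 in *hac1/5*+INA and 134 in Col, and *AT3G21300*, an RNA methyltransferase family gene with 131 reads in *npr1*+INA, 21 in Col+INA, 31 in *hac1/5*+INA and 18 in Col. Response to organic substance had 13 of 73, including the wall-associated kinase *WAK1* with 2814 reads in *npr1*+INA, 8247 in Col+INA, 13682 in *hac1/5*+INA and 433 in Col. Cellular response to stress had 14 of 104, with the endoplasmic reticulum chaperone *BIP1* at 1901 reads in *npr1*+INA and 694 in Col, the disulfide isomerase *PDIL1-2* at 344 in *npr1*+INA and 143 in Col, and the immune receptor *EFR* at 66 in *npr1*+INA and 20 in Col.

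The largest share of lower genes was in cellular response to inorganic substance, with 4 of 21 genes (19.0%). Response to iron ion had 6 lower genes of 36 (16.7%, against 1.77% of all genes), and these include the same 4 genes. The nicotianamine synthases *NAS1* and *NAS3*, in both terms, had 165 and 189 reads in *npr1*+INA against 387 and 411 in Col. Peptide transport had 6 of 40, including the nitrate transporters *NRT1.1*, with 921 reads in *npr1*+INA, 2658 in Col+INA, 2105 in *hac1/5*+INA and 3364 in Col, and *NRT1.5*, with 486 in *npr1*+INA, 911 in Col+INA, 224 in *hac1/5*+INA and 1241 in Col. Cell death had 4 of 28 (14.3%), including *CRK19*, a cysteine-rich receptor-like kinase with 35 reads in *npr1*+INA, 297 in Col+INA, 544 in *hac1/5*+INA and 115 in Col. The phosphorelay term had 5 of 43, including the ethylene receptor *ETR2* with 4 reads in *npr1*+INA against 40 in Col and the transcription factor *RAV1* with 38 in *npr1*+INA, 597 in Col+INA, 496 in *hac1/5*+INA and 157 in Col. Flavonoid biosynthetic process had 4 lower of 35, including *MYBL2*, a repressor of anthocyanin synthesis, with 102 reads in *npr1*+INA, 335 in Col+INA, 326 in *hac1/5*+INA and 328 in Col.

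The gene of unknown function *AT5G42530*, named after its values were seen, was among the most abundant called genes, with 23059 reads in *npr1*+INA, 48849 in Col+INA, 45273 in *hac1/5*+INA and 3551 in Col, a ratio of 6.71 for *npr1*+INA over Col (6.48 to 6.95).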
